A study of Mus musculus with 8 samples.

Results

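Genes for proteins that neutrophils store in granules or secrete were examined in the infarcted mouse heart. The set comprised 10 genes: Mpo, Elane and Prtn3, which encode proteins of the azurophil granules, Camp, Ltf, Ngp, Mmp8 and Chil3, which encode proteins of the specific granules, and Retnlg and Padi4, which encode a secreted and a nuclear protein of mature neutrophils. A member was represented by its brightest probe among those named by a RefSeq transcript and detected, that is well above background, on 4 or more of the 8 arrays. All 10 genes had such a probe, out of 15156 genes with one on the array, and 12 probes of the array belonged to the 10 genes.

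Ventricles of adult male C57BL\6 mice were taken 24 hours after permanent ligation of the anterior interventricular artery (MI mice, n = 4) or after the same operation without ligation (sham-operated mice, n = 4). Both groups had undergone surgery. Total RNA of each mouse was hybridised to 1 array with 1 dye (Agilent SurePrint G3 Mouse), and a single probe signal therefore stands for 1 mouse. Signals are given after a shift of each array by its spike-in RNA and are called normalized signals; they are comparable between mice for the same probe, not between probes.

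Neutrophils make their granules in sequence while they mature in the bone marrow. Promyelocytes fill azurophil granules with myeloperoxidase and serine proteases, later stages make the specific granules with lactoferrin and cathelicidin, and the last stages make gelatinase granules. Transcription of most granule genes declines as the cells reach the blood, so that circulating neutrophils carry the proteins but little of the earliest transcripts. Neutrophils are among the first leukocytes to enter infarcted myocardium.

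To show the sequence context of early and later granule genes, the promoters of 6 members are printed, 4 whose signal was higher in MI mice (Retnlg, Mmp8, Ngp and Ltf) and 2 early genes (Mpo and Elane). The printed set is not the full set: the first 4 are also the only members with a TTGCNNAA match, as given below. Chil3 and Padi4, also higher in MI mice, have no such match and are not printed, nor are Camp and Prtn3. The sequences are those of RefSeq in build GRCm38.p6, on the strand of the gene, from 250 bases before to 50 bases after the annotated start; all 6 genes lie on the + strand. The array design was made on an older build, and no other coordinates are given. Capitals mark matches, on either strand, to the letters TTGCNNAA, a core that C/EBP factors bind, and to GAGGAA, a core that PU.1 binds; C/EBP factors and PU.1 are the main regulators of granule genes.
Retnlg, chr16:48872358-48872657: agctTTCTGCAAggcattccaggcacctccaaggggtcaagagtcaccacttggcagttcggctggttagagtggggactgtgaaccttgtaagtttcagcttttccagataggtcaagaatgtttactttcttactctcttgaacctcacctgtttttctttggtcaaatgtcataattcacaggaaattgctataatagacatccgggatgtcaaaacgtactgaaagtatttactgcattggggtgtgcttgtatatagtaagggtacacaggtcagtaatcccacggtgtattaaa
Mmp8, chr9:7558179-7558478: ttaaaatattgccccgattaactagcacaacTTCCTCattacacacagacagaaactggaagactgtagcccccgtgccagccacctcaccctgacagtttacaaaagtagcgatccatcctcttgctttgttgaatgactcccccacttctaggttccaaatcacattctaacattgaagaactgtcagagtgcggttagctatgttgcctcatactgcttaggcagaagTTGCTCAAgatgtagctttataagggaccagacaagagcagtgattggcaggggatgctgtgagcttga
Ngp, chr9:110419558-110419857: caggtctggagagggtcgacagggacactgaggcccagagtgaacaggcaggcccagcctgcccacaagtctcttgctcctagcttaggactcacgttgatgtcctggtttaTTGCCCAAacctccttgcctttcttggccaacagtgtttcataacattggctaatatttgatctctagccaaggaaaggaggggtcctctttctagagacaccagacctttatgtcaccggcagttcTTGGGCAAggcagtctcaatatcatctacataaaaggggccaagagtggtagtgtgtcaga
Ltf, chr9:111019042-111019341: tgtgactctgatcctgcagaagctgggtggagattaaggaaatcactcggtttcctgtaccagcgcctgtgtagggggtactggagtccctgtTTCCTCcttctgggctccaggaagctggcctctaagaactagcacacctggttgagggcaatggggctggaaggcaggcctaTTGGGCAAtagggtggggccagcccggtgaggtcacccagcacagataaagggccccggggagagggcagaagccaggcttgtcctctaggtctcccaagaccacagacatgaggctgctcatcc
Mpo, chr11:87793534-87793833: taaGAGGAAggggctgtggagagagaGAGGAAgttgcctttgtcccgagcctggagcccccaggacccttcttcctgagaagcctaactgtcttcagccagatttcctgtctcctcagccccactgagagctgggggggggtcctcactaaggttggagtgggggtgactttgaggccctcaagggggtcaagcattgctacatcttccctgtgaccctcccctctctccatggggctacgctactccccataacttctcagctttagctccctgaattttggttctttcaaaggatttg
Elane, chr10:79886062-79886361: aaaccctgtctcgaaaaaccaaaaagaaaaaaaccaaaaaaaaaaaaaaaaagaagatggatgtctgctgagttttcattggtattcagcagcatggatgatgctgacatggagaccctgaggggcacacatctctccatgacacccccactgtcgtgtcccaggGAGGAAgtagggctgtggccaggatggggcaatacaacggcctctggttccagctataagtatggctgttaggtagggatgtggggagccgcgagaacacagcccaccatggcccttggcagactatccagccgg

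The TTGCNNAA core was found in the promoters of 4 of the 10 genes, and in 10.8% of 27018 mouse promoters of the same length. These 4 genes were Retnlg (1 match, 246 bases before the start), Mmp8 (1 match, 19 bases before), Ltf (1 match, 75 bases before) and Ngp (2 matches, 138 and 11 bases before). The GAGGAA core was found in 5 of the 10 promoters, against 28.3% of all promoters: once each in Mmp8, Ltf, Elane and Prtn3, and in 2 places in Mpo, 247 and 224 bases before the start. In Elane it lay 85 bases and in Prtn3 95 bases before the start. The early genes Mpo, Elane and Prtn3 thus each held a GAGGAA match and no TTGCNNAA match in this window, and the promoters of Camp, Chil3 and Padi4 held neither. The letters TGTGGT, a core for RUNX factors, were found on either strand in 1 of the 10 promoters, that of Ltf, and in 16.9% of all promoters. The TATA box letters TATAAA, searched on the strand of the gene, were found in those of Chil3 and Padi4, and in 8.88% of all promoters. These are matches of letters in a fixed window, not binding sites.

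Groups were compared with limma over 34038 probes detected on 4 or more arrays. Probes with a fold change over 2 and a Benjamini-Hochberg adjusted p under 0.05 over all these probes are referred to as called; they were 4.47% of probes in either direction, 3.87% as higher and 0.596% as lower in MI mice. Of the 10 members, 6 were called, all of them higher in MI mice: Retnlg, Ngp, Mmp8, Chil3, Ltf and Padi4. Ngp was well above background in MI mice alone and had to differ to enter the comparison; of the other 9 members, 5 were called. For the same 6 genes the lowest MI mouse exceeded the highest sham-operated mouse, which was the case for 7.56% of all probes, whereas 2.78% of probes were separated in the opposite direction. Camp, Mpo, Elane and Prtn3 were not called. The median log2 fold change of all probes was 0.11, with 5% of probes below -0.54 and 5% above 0.95. An unadjusted p under 0.05 from limma was reached by 5855 of the 34038 probes.

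**Figure D1:**
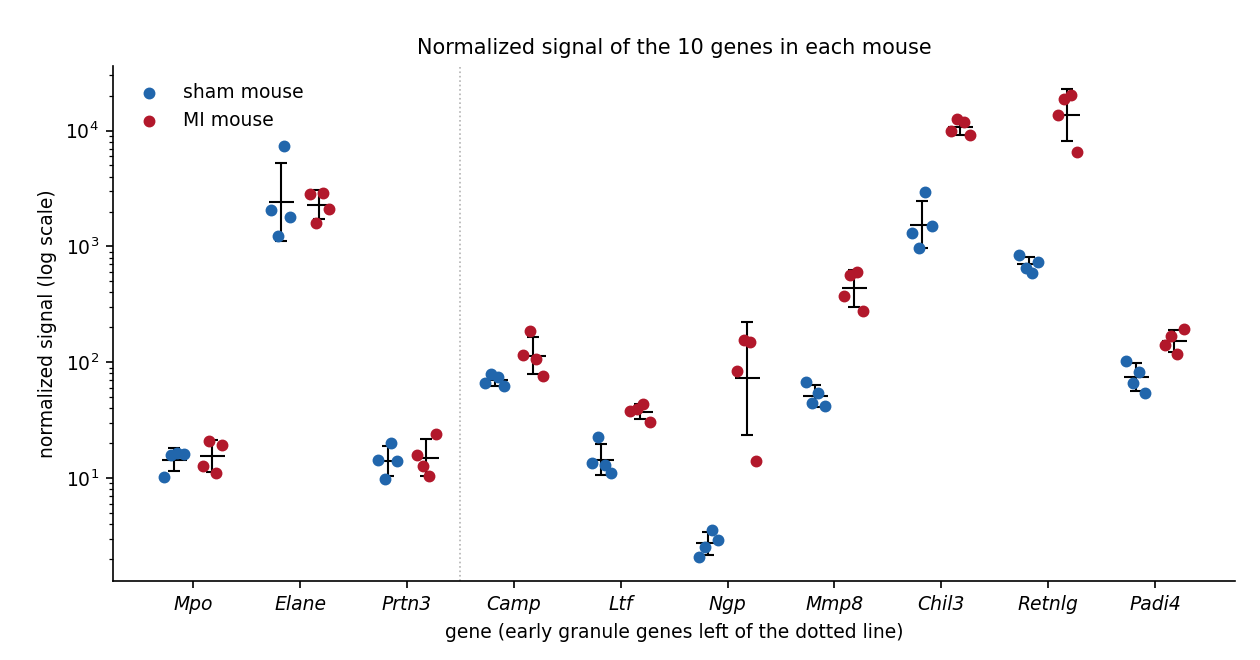
Normalized signal (log scale) of each of the 10 genes in each of the 4 sham-operated mice (blue) and the 4 MI mice (red); horizontal marks are means of log2 values and bars 1 SD. The MI and sham-operated mice are apart for Ltf, Ngp, Mmp8, Chil3, Retnlg and Padi4 and overlap for Mpo, Elane, Prtn3 and Camp; the 4 sham signals of Ngp were not well above background, and heights are not comparable between genes.

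Mpo encodes myeloperoxidase, the haem enzyme that makes hypochlorous acid. Its normalized signals were 12.7, 21.1, 11.03 and 19.4 in the 4 MI mice and 10.2, 15.8, 16.5 and 16.1 in the 4 sham-operated mice. The groups overlapped, and the probe was well above background in 2 MI and all 4 sham-operated mice, so that it was near the limit of detection in both groups. On the log2 scale the signal averaged 3.95 ± 0.46 (SD, n = 4) with MI and 3.84 ± 0.33 (SD, n = 4) without, a log2 fold change of 0.11 (95% interval -0.46 to 0.68, adjusted p = 0.903 from limma). The log2 fold change was 0.49 with dim spots set to missing and 0.44 with the authors' normalized values, and was not called in either. The interval describes the measured signals. With signals this near background, it cannot exclude a 2-fold change of the transcript.

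Elane encodes neutrophil elastase, the main serine protease of azurophil granules. Signals of 2847, 1579, 2886 and 2103 were measured in MI mice and of 2046, 1229, 7388 and 1802 in sham-operated mice. This probe was bright in every heart, and the highest value of all was that of a sham-operated mouse, sham replicate 3. The probes of Mpo and Prtn3 were near the limit of detection in the same hearts. Whether the Elane probe reports the neutrophil transcript alone was not tested. The log2 fold change was -0.07 (95% interval -0.96 to 0.81, adjusted p = 0.961 from limma); without sham replicate 3 it was 0.47 and without MI replicate 2 it was 0.10, and neither was called. A sham-operated mouse thus differed from the other 3 of its group by more than any MI mouse did from the rest of its own.

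Prtn3 encodes proteinase 3 and lies next to Elane on chromosome 10, on the same strand. Its signals were 15.8, 12.8, 10.4 and 24.2 in MI mice and 14.3, 9.73, 19.98 and 14.0 in sham-operated mice. Like Mpo it was near the limit of detection, with 3 MI and 2 sham-operated mice well above background, and the groups overlapped. Its log2 fold change was 0.10 (95% interval -0.52 to 0.71, adjusted p = 0.920 from limma). Sham replicate 3 had the highest sham value of all 3 azurophil genes, whereas the highest MI value fell to a different mouse for each of them. The near-zero fold changes of Mpo and Prtn3 took a negative sign when each array was scaled to its 75th percentile, at -0.025 for Mpo and -0.035 for Prtn3, and no direction is given for them.

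Among the specific granule genes, Ngp was well above background in MI mice only. It encodes neutrophilic granule protein, a cystatin-like protein made by myelocytes. The signals were 84.7, 157, 148 and 14.1 in MI mice and 2.07, 2.56, 3.59 and 2.93 in sham-operated mice. All 4 MI mice were well above background and no sham-operated mouse was, so the probe entered the test through the MI mice alone and its sham level is known only as a bound. As a floor, each sham array was set to the lowest signal of any probe well above background on it, or to the probe's own signal where higher. With this floor, Ngp was at least 11.6-fold higher in MI mice (adjusted p = 3.44e-05 from limma on the measured signals, which include the sham signals near background). The floor averaged 6.25, and higher signals of other probes were not always well above background, so the fold could be smaller than this bound. The log2 fold change was 1.13 after a normexp background correction and 0.53 in a spike-in fit with additive constants. MI replicate 4 stood apart: the other 3 MI mice were at 84.7 or more, and the highest MI signal was 11.2 times its signal. Without this mouse the bound was at least 20.05-fold, and it was lowest, at least 8.97-fold, without MI replicate 2.

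Mmp8, which encodes neutrophil collagenase, gave signals of 371, 569, 605 and 277 in MI mice and of 67.6, 44.7, 53.9 and 42.2 in sham-operated mice. Every array detected it, and the lowest MI mouse was well clear of the highest sham-operated mouse. The log2 signal averaged 8.76 ± 0.53 (SD, n = 4) with MI and 5.68 ± 0.31 (SD, n = 4) without. Mmp8 was 8.47-fold higher in MI mice (log2 fold change 3.08, standard error 0.28, adjusted p = 3.35e-06 from limma). The exact two-sided permutation test over the mice gave p = 0.0286, the smallest value that 4 against 4 mice allow; the same value was obtained for Retnlg, Chil3, Ltf and Padi4.

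Chil3 encodes the chitinase-like protein Ym1, which is stored in specific granules and is also made by alternatively activated macrophages. Its signals were 9829.7, 12516, 11967 and 9111 in MI mice and 1302, 977, 2924 and 1499 in sham-operated mice. The MI mice were close together, within 1.37-fold, whereas the sham-operated mice spread over 2.99-fold, with sham replicate 3 highest. Chil3 was 7.0-fold higher in MI mice (log2 fold change 2.81, standard error 0.30, adjusted p = 1.55e-05 from limma). Its neighbour and close paralogue Chil4 rose by a log2 fold change of 2.81 as well (adjusted p = 1.56e-05 from limma), with signals of 143, 163, 143 and 136 in MI mice and 14.5, 13.9, 38.5 and 24.5 in sham-operated mice. Sham replicate 3 was again the highest sham-operated mouse; whether the probe of either gene also binds the transcript of the other was not tested.

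Ltf encodes lactoferrin, the iron-binding protein that defines specific granules. Signals were low, at 37.6, 39.4, 43.2 and 30.3 in MI mice and at 13.4, 22.5, 13.02 and 11.1 in sham-operated mice. All 4 MI mice but only 2 sham-operated mice were well above background, and the groups did not overlap. Ltf was 2.58-fold higher in MI mice (log2 fold change 1.37, standard error 0.26, adjusted p = 0.00312 from limma). An alternative fit to the spike-in signals gave each array an additive constant (166 to 257), well over the signals of Ltf, and this call was lost there (log2 fold change 0.14), with the authors' normalized values (0.62) and after a normexp background correction (0.24).

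Camp encodes the cathelicidin precursor, an antimicrobial peptide of the same granules. The signals of 115, 185, 106 and 76.0 in MI mice and of 66.1, 79.3, 74.7 and 62.0 in sham-operated mice overlapped through 1 MI mouse, MI replicate 4, which lay below the highest sham-operated mouse. The log2 fold change was 0.70 (95% interval 0.14 to 1.27, adjusted p = 0.162 from limma), and the exact two-sided permutation test gave p = 0.0571. A second Camp probe gave a log2 fold change of 0.59 (adjusted p = 0.182 from limma); on this probe the groups did not overlap, with 55.7 in the lowest MI mouse and 50.5 in the highest sham-operated mouse, and the exact permutation p was 0.0286. Camp was not called, and none of the alternatives tried called it.

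Camp, Ngp and Ltf lie in this order on chromosome 9, and Mmp8 lies further away on the same chromosome. The nearest annotated genes around Ngp, Ptpn23 and Klhl18, had log2 fold changes of 0.92 and 0.34, and those around Camp, Nme6 and Cdc25a, of -0.56 and 0.27. Rtp3 and Ccrl2 beside Ltf were at 0.26 and -0.61. None of these 6 neighbours was called. Ptpn23 missed the call on the fold limit alone: it was 1.89-fold higher in MI mice (adjusted p = 0.0406 from limma), and its groups did not overlap. Around the other members, Chil4 was the only neighbour called among those with a detected probe, which included Cfd beside Elane (0.40), Lpo and Tspoap1 beside Mpo (0.16 and 0.25) and Retnla beside Retnlg (0.25).

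Retnlg, a small cysteine-rich protein of the resistin family that neutrophils secrete, had the strongest change among members detected in every mouse. Its signals were 13685, 18699.5, 20157 and 6533 in MI mice and 845, 652, 595 and 734 in sham-operated mice. The sham-operated mice lay within 1.42-fold of each other, and even the lowest MI mouse, MI replicate 4, was far above them. The log2 signal averaged 13.73 ± 0.74 (SD, n = 4) with MI and 9.45 ± 0.22 (SD, n = 4) without. Retnlg was 19.3-fold higher in MI mice (log2 fold change 4.27, standard error 0.31, adjusted p = 3.82e-07 from limma). The other resistin genes with a detected probe, Retn and Retnla, were not called, with log2 fold changes of 0.48 and 0.25.

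Padi4 encodes the peptidylarginine deiminase that citrullinates histones when neutrophils release extracellular traps. The signals were 139.6, 169.7, 118 and 193 in MI mice and 103, 66.1, 81.6 and 54.0 in sham-operated mice. The groups did not overlap, but the lowest MI mouse and the highest sham-operated mouse were close. Padi4 was 2.06-fold higher in MI mice (log2 fold change 1.04, standard error 0.26, adjusted p = 0.0230 from limma), just past the 2-fold limit. The call was lost without MI replicate 2 (0.99), MI replicate 4 (0.93), sham replicate 2 (0.99) or sham replicate 4 (0.89), under each other normalization of the arrays, and when its 2 probes were averaged (0.93); the second probe alone gave 0.81 (adjusted p = 0.0822 from limma). Its relatives Padi1 and Padi2 were not called (0.47 and 0.22).

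**Figure D2:**
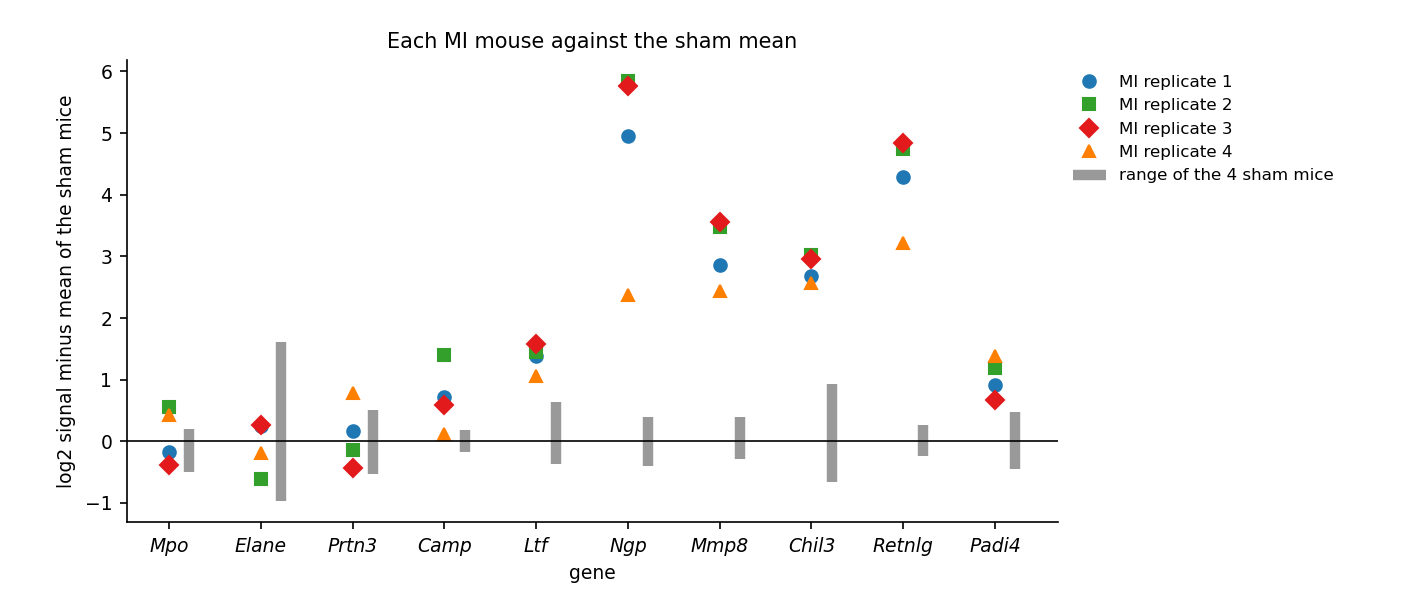
Log2 normalized signal of each gene in each MI mouse, minus the mean of the 4 sham-operated mice; grey bars give the range of the sham-operated mice around their mean. MI replicate 4 (triangles) is the lowest MI mouse for Camp, Ltf, Ngp, Mmp8, Chil3 and Retnlg but the highest for Prtn3 and Padi4.

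The 4 MI mice did not carry equal amounts of these transcripts. MI replicate 4 was lowest for 5 of the 6 called members, Padi4 being the exception, and also for Camp, and MI replicate 2 or 3 was highest for the same 6 genes. The ratio of the highest to the lowest MI mouse ran from 1.37 for Chil3 and 1.43 for Ltf through 2.18 for Mmp8, 2.43 for Camp and 3.09 for Retnlg to 11.2 for Ngp. Over 27 further genes of the neutrophil lists that were called, MI replicate 4 was lowest for 10, MI replicate 1 for 10, MI replicate 2 for 6 and MI replicate 3 for 1. The 8 arrays stood in 2 rows of the slide with 2 MI and 2 sham-operated mice in each, and the called members were higher in MI mice in both rows. In the first and the second row the log2 fold change was 4.43 and 4.12 for Retnlg and 3.06 and 3.10 for Mmp8. It was 3.30 and 2.32 for Chil3, 1.15 and 1.59 for Ltf and 0.90 and 1.18 for Padi4. With the same floor as above, Ngp was at least 18.3-fold higher in the first row and at least 7.35-fold higher in the second. The second row held MI replicate 4. The signs of Mpo, Elane and Prtn3 were opposite in the 2 rows, at 0.37 and -0.15, 0.42 and -0.57, and 0.27 and -0.07. With the row as a block the calls of all 10 members were as before. In whole-ventricle RNA, fewer neutrophils and less of a transcript per neutrophil cannot be told apart.

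The early genes were then set beside the other 7. In each mouse, the mean log2 signal of Mpo, Elane and Prtn3 was subtracted from that of Camp, Ltf, Ngp, Mmp8, Retnlg, Chil3 and Padi4, and the result was expressed relative to the mean of the sham-operated mice. This difference was 2.46, 3.08, 3.04 and 1.54 in MI mice and 0.28, 0.40, -0.60 and -0.08 in sham-operated mice. The lowest MI mouse, again MI replicate 4, lay above all sham-operated mice. The mean over MI mice was 2.53 ± 0.72 (SD, n = 4). It was 2.56 with Mpo and Elane alone as early genes, and 2.47 with Mpo and Prtn3 alone. Without Ngp, whose sham signals were not well above background, it was 2.17. It was smaller in the spike-in fit with additive constants, at 1.33, and after a normexp background correction, at 1.65. The members were chosen with results of these mice known, and no test was made of this difference. The early side of the difference is limited because 2 of the 3 early genes were near the limit of detection and Elane varied most among sham-operated mice. The late side is limited by Ngp, which varied most among MI mice (SD 1.63 on the log2 scale).

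The granule classes were then followed beyond the members. Of 10 azurophil granule genes, 7 had a probe detected on 4 or more arrays and 0 were called by limma, 0 at an unadjusted p under 0.05 and 0 by significance analysis of microarrays (SAM); their log2 fold changes lay between -0.10 and 0.44, with a median of 0.10, beside 0.11 for all probes. The highest was Ctsg, which encodes the protease cathepsin G (0.44). Like Mpo and Prtn3 it was near the limit of detection, at 17.3 to 27.2 with MI and 11.8 to 18.1 without. Only 2 sham-operated mice were well above background for Ctsg. Ctsc, Serpinb1a and Cd63 were bright in every heart, with log2 fold changes of -0.10, -0.011 and 0.10. Cd63 is a membrane protein of azurophil granules that many cell types make. Which cells gave these bright signals was not tested. The count of 0 thus cannot decide whether azurophil transcripts of neutrophils changed. Prss57, Ms4a3 and Bpi had no probe detected on as many.

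Specific granule genes were called in 6 of 9 cases, or in 5 of 8 without Ngp, all higher in MI mice, with a median log2 fold change of 1.39. Besides the 4 members Ltf, Ngp, Mmp8 and Chil3 these were Cd177, a neutrophil surface and granule protein (4.72), and Hp, which encodes haptoglobin (1.39). Cd177 gave signals of 243, 179, 312 and 119.8 in MI mice and of 15.0, 3.75, 5.43 and 11.04 in sham-operated mice, with MI replicate 4 again lowest and only 1 sham-operated mouse well above background. It therefore passed the detection filter mainly through the MI mice, and it is still counted in the 5 of 8. The size of its change is uncertain: the log2 fold change was 1.97 with normexp. In the spike-in fit with constants it was 0.94 and not called. Lcn2, which encodes the siderophore-binding lipocalin 2, and Cybb, which encodes a subunit of the NADPH oxidase, were not called (0.65 and 0.71), nor was Camp.

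Gelatinase granule genes were called in 5 of 6 cases, or in 4 of 5 without Mmp25, which entered the comparison through the MI mice alone. Mmp9, the gelatinase that gives these granules their name, had signals of 298, 265, 329 and 387 in MI mice and 79.3, 31.4, 48.2 and 39.8 in sham-operated mice, a log2 fold change of 2.76 (adjusted p = 9.15e-06 from limma). For Mmp9 it was MI replicate 4 that was highest. Adam8, Itgb2 and Slc11a1 had log2 fold changes of 2.59, 1.29 and 1.52. Mmp25, not well above background in any sham-operated mouse, was at least 3.22-fold higher with the floor used for Ngp. As for Ngp, higher signals were not always well above background, so the fold of Mmp25 could be smaller than this bound. Its log2 fold change was 0.20 with normexp and 0.12 in the spike-in fit with constants. The median of the 6 genes was 1.99, or 1.60 with Mmp25 at its bound. Itgam was not called on its brightest probe (0.14), but its probes disagreed, with log2 fold changes from 0.14 to 1.82.

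All 8 genes for cytosolic and secreted proteins of neutrophils were called as higher in MI mice, Retnlg and Padi4 included, with a median of 3.11. Stfa2l1, which encodes a stefin, a cysteine protease inhibitor, had a log2 fold change of 4.30, close to that of Retnlg; the order of these genes turned in the spike-in fit with constants (3.13 against 3.92), with the authors' values (4.19 against 4.24) and with normexp (3.78 against 4.10). S100a8 and S100a9, the subunits of calprotectin, were at 3.03 and 2.79, Wfdc21 and the protease inhibitor gene Slpi at 3.19 and 2.30, and the cytokine gene Il1b at 3.32. These lists, like the members, were chosen with results of these mice known.

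**Figure D3:**
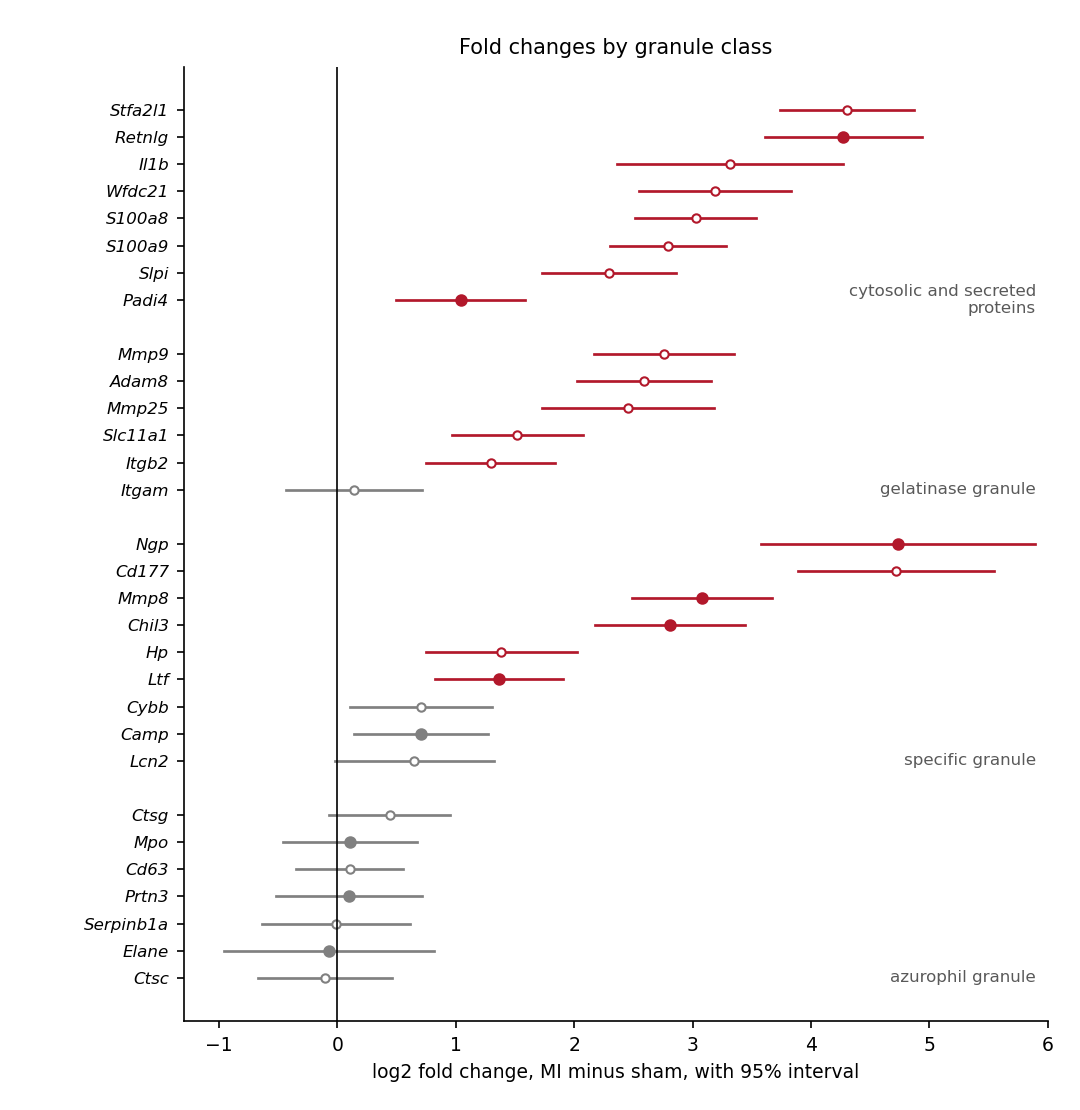
Log2 fold change (MI minus sham) with 95% interval for the genes of 4 lists that had a probe detected on 4 or more arrays. Red marks genes that were called and grey those that were not, and filled circles are the 10 members; the 7 azurophil genes lie between -0.10 and 0.44 and all 8 cytosolic and secreted genes above 1. For Ngp and Mmp25 the fitted value is drawn, although their sham signals were not well above background.

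Factors that drive granulopoiesis were also measured. Cebpe, which encodes the C/EBP factor required for specific granule genes, rose by a log2 fold change of 2.19 (adjusted p = 1.45e-05 from limma), with signals of 129.5, 125, 155 and 176 in MI mice and 26.6, 37.4, 36.2 and 28.6 in sham-operated mice. This call was lost in the spike-in fit with constants (0.56) and with normexp (0.90). Spi1, which encodes PU.1 and was well above background in 1 sham-operated mouse, and Runx1 were also called (2.28 and 2.08), though not in the fit with constants (0.27 and 0.68) and Spi1 not with the authors' values (0.93), normexp (0.53) or dim spots set to missing (1.26); Cebpa, Cebpb and Cebpd were not called (0.43, 0.37 and 0.42). Gfi1 and Myb, which act in immature precursors, were not well above background on any array. Of 6 genes of proliferating precursors, 1 was called, Kit (2.10), which mast cells also express. Which cells gave the Kit signal was not tested. The median of the list was 0.11, and Mki67 was at -0.18. Of 10 detected genes for surface proteins of mature neutrophils, 8 were called, with a median of 2.26; Cxcr2, the chemokine receptor of mature neutrophils, was highest (3.70), while Csf3r, bright in all 8 hearts, was at 0.09. The chitinase-like list had 3 of 4 detected genes called, Chil1 (1.82), Chil3 and Chil4.

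Markers of other cell types were set beside these values. Of 6 detected neutrophil markers, 5 were called (Retnlg, Mmp8, Cxcr2, S100a8 and S100a9, of which Retnlg and Mmp8 are members). The summed signal of the 6 was 204392 to 314494 in MI mice and 61885 to 78493 in sham-operated mice. Bright probes weigh most in such sums: S100a9 gave 26.4% to 57.4% of this one. Without S100a9 the ranges were 89985 to 142215 and 41033 to 56117. Ly6g, the defining surface marker of mouse neutrophils, had no RefSeq-named probe. Of 8 detected monocyte and macrophage markers 1 was called, Ccr2 (1.23), and 4 had an unadjusted p under 0.05, Ccr2, Fcgr1 (0.72) and Ear2 (0.79), whose groups did not overlap, and Cx3cr1, at -0.74. Ly6c2 and Cd68, the other genes of this list, had no RefSeq-named probe. The median of the detected genes was 0.08 and does not cover them. The summed signal was 10233 to 18769 in MI mice and 12575 to 18871 in sham-operated mice, so that these ranges overlapped; Csf1r gave 59.4% to 65.9% of the sum, and without it the ranges, 4133 to 7624 and 4822 to 6431, overlapped as well. No marker of eosinophils, basophils and mast cells was called out of 5, and the defining genes Epx and Mcpt8 were not well above background on any array. The erythroid list, a measure of blood in the tissue, had 0 of 5 markers called and a median of 0.13, and the platelet list 1 of 5 (Ppbp) and 3 at an unadjusted p under 0.05, with a median of 0.55. T and NK cell, B cell and smooth muscle lists had 1 marker called each (Cd3d, Ms4a1 and Acta2), with 1, 3 and 1 at an unadjusted p under 0.05. Summed signals of MI and sham-operated mice did not overlap for platelets (19392 to 30670 against 15731 to 17806), B cells (198 to 287 against 119 to 168) and smooth muscle (24544 to 43893 against 16253 to 21553); without Acta2 those of smooth muscle overlapped (8027 to 10816 against 8820 to 12227). The cardiomyocyte, fibroblast and endothelial lists had 0 by limma or SAM, with 1, 0 and 1 markers at an unadjusted p under 0.05. Among all 34038 probes, 5855 reached an unadjusted p under 0.05, so such counts are to be read beside that share. In the list of eosinophils, basophils and mast cells and in the erythroid list, 1 marker each reached an unadjusted p under 0.05 and 0 were called by SAM. The part of these cells in the signals of the members was not tested.

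**Figure D4:**
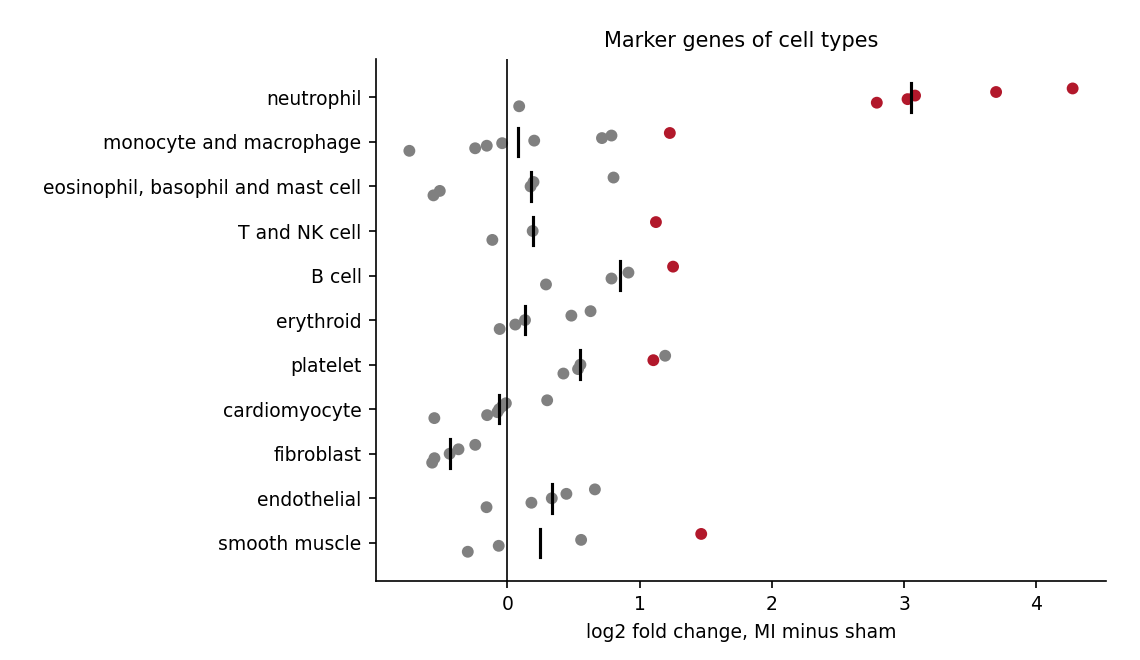
Log2 fold change (MI minus sham) of marker genes for 11 cell types; each point is a gene, red where it was called, and the black bar is the median of the list. The neutrophil list has its median at 3.05, and every other list has its median below 1.

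The size of the changes depended on how dim signals were treated. Every signal of Mpo, Prtn3, Ltf and Ngp, and every sham signal of Camp, Mmp8 and Padi4, lay below 166, the lowest additive constant of the alternative spike-in fit. For the bright genes the log2 fold change moved little between 6 ways of processing the signals: Retnlg stayed between 3.92 and 4.27 and Chil3 between 2.64 and 2.81. Mmp8 remained called but fell from 3.08 to 1.32 when the spike-in fit included additive constants, and Ngp was no longer called there (0.53).

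**Figure D5:**
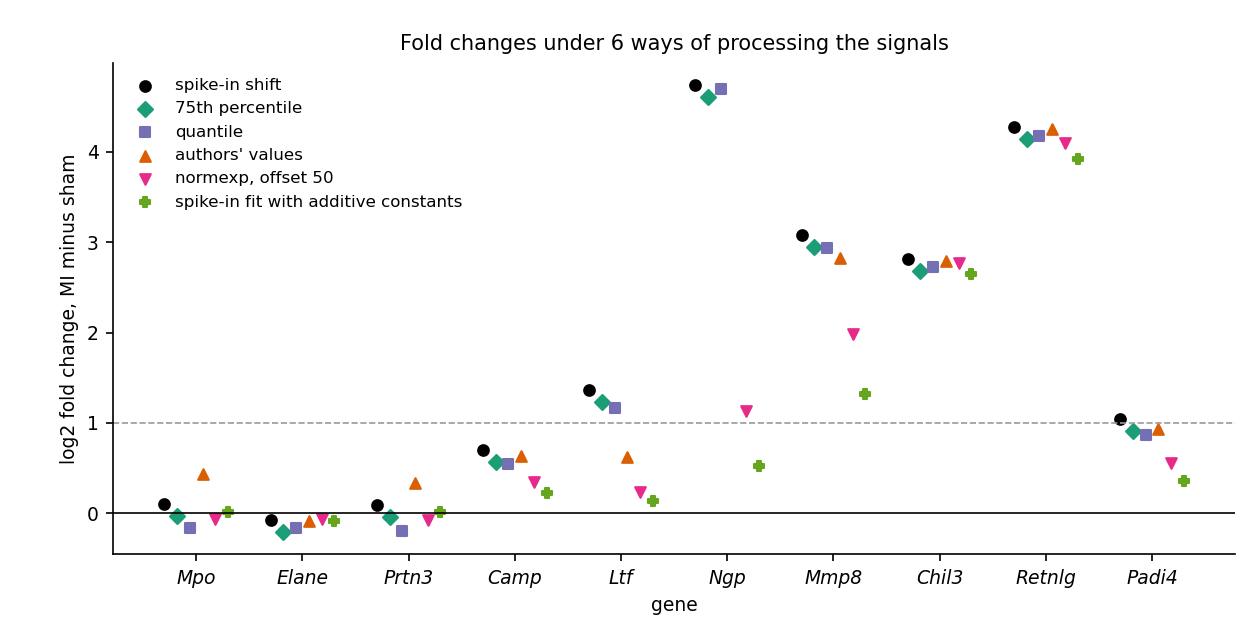
Log2 fold change (MI minus sham) of the 10 genes under 6 ways of processing the signals; the dashed line marks 2-fold. Retnlg and Chil3 stay together, whereas the values of Ngp, Mmp8, Ltf, Camp and Padi4 shrink towards 0 in the fit with additive constants and in normexp; the authors' values hold none for Ngp in sham-operated mice.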

How the data were processed

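Mouse ventricle RNA was measured on 8 arrays (4 MI, 4 sham). The deposited intensities came, per the file headers, from Feature Extraction 11.0.1.1, which had subtracted the background and removed spatial trends within each array. The authors then applied limma and vsn with the spike-in probes, and their deposited log2 values served as an alternative. Here, the log2 signal of each array was shifted by 234 spots of 7 spike-in probes (shifts of -0.38 to 0.33), without an additive constant, because a fit with constants gave values of 166 to 257, above the signals of the dim members. Outlier spots were left out and spots of a probe averaged. Controls, and probes detected on fewer than 4 arrays, were removed, leaving 34038 of 55681. Between 56.2% and 64.0% of spots per array were well above background, and the number of arrays limits the precision.

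MI and sham-operated mice were compared with limma 3.58.1 (R 4.3.3), without covariates. On 33865 simulated probes, 100 changed by 1.5 and 100 by 3 on the log2 scale, limma recovered 92% and 100%, with 16 false calls. Other computations used Python 3.11.15, numpy 2.4.6, scipy 1.17.1, pandas 2.3.3 and matplotlib 3.10.9. Gene symbols came from RefSeq accessions (26582 probes paired). The named genes are the members, genes of the lists and neighbours in the genome. The members, lists and tests were chosen with earlier results of these data known. Alternatives were scaling to the 75th percentile, quantile normalization, the spike-in fit with constants (vsn model), normexp with an offset of 50 on median signals, the authors' values, other detection filters, dim spots set to missing, SAM, a t-test, replicate and row blocks, the mean of a gene's probes, and each mouse left out. A mean-variance trend, and the alternatives of the early-late difference, the list genes and the bound of Ngp, were added after seeing the data.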

Additional observations from a re-analysis of the deposited data

Results flagged for a closer look

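Of 106 groups of 4 mice examined for the members and the list genes named, 4 held a mouse far from the other 3, and chance gives about 1 in 20 groups. For Mpo, sham replicate 1 had a signal of 10.2, against 15.8 to 16.5 in the other sham-operated mice. For Il1b, sham replicate 3 was at 404, against 141 to 165. For Spi1, sham replicate 1 was at 23.5, against 8.25 to 9.75. For Cx3cr1, sham replicate 4 was at 116, against 178 to 194.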

How the results depend on the processing

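Retnlg, Mmp8 and Chil3 were called, and Camp and Elane were not, under every alternative that was run for them. The count of called probes, 1520 (86.6% higher in MI mice), was 333 in the spike-in fit with constants (vsn model), 1009 with the authors' values, 609 with normexp, 993 without a detection filter and 634 with an unmoderated t-test after the Benjamini-Hochberg adjustment (1604 at an unadjusted p under 0.05, fold over 2), and 1238 to 1850 with each mouse left out. The share of called probes that were higher was 72.2% after scaling to the 75th percentile, which lowered the median log2 fold change by 0.13, 69.0% after quantile normalization and 96.1% in the vsn model. The cause of the other changes listed here was not tested. Ltf lost its call in the vsn model (log2 fold change 0.14), with the authors' values (0.62), normexp (0.24) and the t-test (1.37), and Ngp in the vsn model (0.53) and the t-test (4.73). Padi4 lost it after 75th percentile scaling (0.91), in the vsn model (0.36), after quantile normalization (0.86), with the authors' values (0.93), normexp (0.56), no detection filter (1.04), the t-test (1.04) and the mean of its probes (0.93); leaving out each mouse gave 0.89 to 1.20. Mpo turned negative with 75th percentile scaling (-0.025), quantile normalization (-0.17) and normexp (-0.062), and with each mouse left out it ran from -0.058 to 0.27. Prtn3 did so with -0.035, -0.19 and -0.069, and from -0.13 to 0.27; Elane ran from -0.40 to 0.47. Ctsg turned negative with normexp (-0.036), Cd63 (-0.029) and Csf3r (-0.042) with 75th percentile scaling, and, with each mouse left out, Itgam ran from -0.018 to 0.36, Csf3r from -0.017 to 0.16, and Csf1r from -0.28 to 0.034. Of 25 list genes named above that were called, 17 lost the call under at least 1 alternative and 0 changed sign: Cd177, Mmp25, Cebpe, Spi1, Runx1, Chil1, Chil4, Kit, Ccr2, Ppbp, Cd3d and Ms4a1 in the vsn model, some of them elsewhere too, and Hp, Itgb2, Slc11a1, Il1b and Acta2 with the t-test, Hp also without a detection filter. Leaving out 1 mouse ended the call of Ppbp (without MI replicate 2 or 4 or sham replicate 2), Cd3d (MI replicate 3) and Ms4a1 (MI replicate 2 or sham replicate 3). The early-late difference of 2.53 was 1.33 in the vsn model and 1.65 with normexp. Replicate numbers did not pair the mice: deviations of same-numbered mice correlated at 0.196, 0.042, -0.073 and 0.0071, 1 MI mouse correlated best with its own number, and a replicate block gave 1551 called probes and changed no member's call. Ltf, Ngp, Mpo and Prtn3 had no value where detection on all 8 arrays was required, and Ngp none with dim spots missing or the authors' values. Signals near background limit what can be said of Mpo, Prtn3, Ltf and Ngp.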
